A study of Mus musculus with 12 samples.

Results

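The NADPH oxidases were followed through 9 genes, out of 18820 genes with a transcript cluster of their own on the array. *Cybb*, *Cyba*, *Ncf1*, *Ncf4* and *Rac2* encode parts of the phagocyte oxidase, *Nox1* and *Nox4* encode other catalytic subunits, and *Duox2* and *Duoxa2* encode an epithelial dual oxidase and its maturation factor. Each was taken from the cluster annotated with exactly its symbol, and each of the 9 had 1 such cluster. *Rac2*, *Ncf1* and *Cyba* were lower in *Csf1r* ΔFIRE/ΔFIRE than in *Csf1r* +/+ hippocampi, no member passed the test for genotype in the ileum, and *Duox2* was lower in hippocampus than in ileum in both genotypes.

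NADPH oxidases move electrons from cytosolic NADPH across a membrane to oxygen and so make superoxide or hydrogen peroxide. In the phagocyte enzyme the membrane pair of gp91phox (*Cybb*, also called NOX2) and p22phox (*Cyba*) is silent until cytosolic proteins, among them p47phox (*Ncf1*) and p40phox (*Ncf4*), and a Rac GTPase join it, and loss of this enzyme in people causes chronic granulomatous disease. Microglia, macrophages and neutrophils carry it, and B cells also express several of its genes. In the gut, NOX1 and DUOX2 are made by epithelial cells, and DUOX2 leaves the endoplasmic reticulum only with DUOXA2.

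The arrays held 4 groups of 3: hippocampus and ileum of *Csf1r* ΔFIRE/ΔFIRE mice, and hippocampus and ileum of *Csf1r* +/+ mice. All were 6 weeks old, of the C57BL/6J/CBA strain, and perfused with saline, and the ileum pieces are described as containing a Peyer's patch. ΔFIRE/ΔFIRE mice (FIRE -/- in the sample labels) lack the FIRE enhancer of *Csf1r*, the CSF1 receptor gene, on both alleles, and the line descends from 1 founder male whose offspring with C57BL/6J females were interbred, so it represents a single deletion event. No source used here says if a hippocampus and an ileum came from the same animal. Values are RMA log2 signals, so a difference of 1 doubles the linear signal, and signals of different clusters were not set against each other.

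The tissue labels fitted their markers. A list of 7 neuronal genes averaged 10.60 to 10.80 on the hippocampus arrays and 4.75 to 5.22 on the ileum arrays, while 8 ileal epithelial genes averaged 3.23 to 3.83 in hippocampus and 10.73 to 11.36 in ileum. *Csf1r* itself read 3.58, 3.69 and 3.65 in *Csf1r* ΔFIRE/ΔFIRE hippocampi, against 8.34, 8.31 and 8.15 in *Csf1r* +/+ hippocampi. The *Csf1r* ΔFIRE/ΔFIRE hippocampus array B09 is labelled female but read 2.44 for *Xist*, a value among those of the male-labelled arrays, and female-labelled arrays otherwise read 7.15 to 9.17. It read 6.18 for the Y-linked *Eif2s3y*, with 6.09 to 7.40 on male-labelled and 2.16 to 2.69 on the other female-labelled arrays. Ileum arrays F09 (*Csf1r* ΔFIRE/ΔFIRE) and D09 (*Csf1r* +/+) stood apart from the other 4, with a mean of 7.70 and 7.55 for 10 B cell genes against 3.29 to 3.55. On the other 4 the follicle genes *Pax5* (3.15 to 3.21) and *Cr2* (2.30 to 2.44) were at their hippocampus level (3.07 to 3.29 for *Pax5*, 2.21 to 2.41 for *Cr2*). *Pax5* and *Cr2* thus go against the description for C09, E09, G09 and H09. But *Cd79a* read 3.37 to 5.59 on these 4 arrays, highest on G09, and 2.48 to 2.93 in hippocampus. *Cd79b* read 5.26 to 5.94 there and 3.11 to 4.48 in hippocampus. *Cd22* and *Cxcr5* also lay above their hippocampus values, while *Ms4a1*, *Fcer2a*, *Blk* and *Fcmr* overlapped them. The B cell genes as a set therefore do not settle the description of these arrays. Phagocyte results that change by over 1.5 times without F09 or D09 are given without them too.

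Promoter windows of 300 bases that span a start site were taken from RefSeq (GRCm38.p6) for 7 of the 9 genes, all but *Ncf4* and *Rac2*. The phagocyte windows of *Cybb*, *Cyba* and *Ncf1* are shown because these genes differed in the hippocampus or between tissues, and those of *Duox2* and *Duoxa2* because they form the epithelial pair that differed between tissues. Capitals mark a match to GAGGAA, the core of sites bound by PU.1, in *Cybb* (here on the opposite strand, as its reverse complement), and overlapping matches to TTTATNG, bound by CDX2 (on the opposite strand), and TATAAA, the TATA box core, in *Duoxa2*.
*Cybb* chrX:9469275-9469574 (- strand): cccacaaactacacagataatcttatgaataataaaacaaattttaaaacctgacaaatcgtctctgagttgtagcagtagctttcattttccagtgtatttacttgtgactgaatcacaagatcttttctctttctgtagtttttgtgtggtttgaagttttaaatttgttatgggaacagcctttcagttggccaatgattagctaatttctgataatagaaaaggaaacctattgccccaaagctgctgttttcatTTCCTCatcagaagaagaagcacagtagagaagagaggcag
*Cyba* chr8:122432891-122433190 (- strand): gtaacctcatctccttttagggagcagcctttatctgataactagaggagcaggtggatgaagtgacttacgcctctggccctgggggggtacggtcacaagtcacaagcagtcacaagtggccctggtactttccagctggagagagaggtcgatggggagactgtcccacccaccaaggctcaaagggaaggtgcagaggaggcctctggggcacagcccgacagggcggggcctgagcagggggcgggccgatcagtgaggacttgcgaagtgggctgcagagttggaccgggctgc
*Ncf1* chr5:134229576-134229875 (- strand): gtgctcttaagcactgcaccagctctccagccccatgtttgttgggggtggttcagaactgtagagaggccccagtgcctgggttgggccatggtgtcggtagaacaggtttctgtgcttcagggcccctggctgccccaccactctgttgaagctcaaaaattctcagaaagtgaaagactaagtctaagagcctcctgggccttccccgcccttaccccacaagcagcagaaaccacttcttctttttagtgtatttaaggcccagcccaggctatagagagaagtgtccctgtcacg
*Duox2* chr2:122298178-122298477 (- strand): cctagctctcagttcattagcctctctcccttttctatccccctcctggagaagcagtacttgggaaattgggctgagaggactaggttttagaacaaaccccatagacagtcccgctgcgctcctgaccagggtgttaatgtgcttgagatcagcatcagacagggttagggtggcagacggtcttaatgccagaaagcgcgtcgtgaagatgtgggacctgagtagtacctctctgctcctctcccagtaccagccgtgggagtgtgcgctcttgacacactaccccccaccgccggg
*Duoxa2* chr2:122298650-122298949 (+ strand): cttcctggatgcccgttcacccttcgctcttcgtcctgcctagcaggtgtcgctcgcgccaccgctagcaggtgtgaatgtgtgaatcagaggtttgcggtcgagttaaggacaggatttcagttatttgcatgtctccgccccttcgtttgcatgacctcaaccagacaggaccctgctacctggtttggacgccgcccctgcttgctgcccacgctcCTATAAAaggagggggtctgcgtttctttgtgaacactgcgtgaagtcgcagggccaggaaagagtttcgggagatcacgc

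Positions are counted from the start site of each window. *Cybb* held its GAGGAA at position 10 on the opposite strand, and *Nox1* held one at position -23. GAGGAA on either strand occurs in 28.3% of all 32851 promoter windows of the same length, and in 2 of the 7 members with a window. TTTATNG was found in *Nox1* and *Duoxa2* (10.9% of all windows), and TATAAA, searched for only after the letters of the windows had been seen, in *Duoxa2* alone at position -30 (13.6% of all windows). The longer PU.1 form GAGGAAGT (3.2% of windows) and the HNF4A motif CAAAGTCCA (0.475%) were in none of the 7. These matches describe letters and are not evidence of binding. *Duox2* and *Duoxa2* lie head to head on chromosome 2, on opposite strands, with 159 bases between the annotated genes. The start sites of their printed windows lie 673 bases apart, and the *Duox2* window lies inside the annotated *Duox2* gene. The windows of *Cybb*, *Nox1* and *Nox4* also lie inside their annotated genes, which for *Cybb* runs from 9435252 to 9487766. Motif positions in these windows are therefore not distances from the outer end of the annotated gene.

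In the hippocampus, *Rac2*, *Ncf1* and *Cyba* fell in *Csf1r* ΔFIRE/ΔFIRE mice and none of the 9 rose. *Rac2*, a GTPase largely restricted to blood cells that activates the phagocyte enzyme, read 3.31, 3.86 and 3.57 in *Csf1r* ΔFIRE/ΔFIRE hippocampi, against 4.94, 4.72 and 5.02 in *Csf1r* +/+ hippocampi. The highest *Csf1r* ΔFIRE/ΔFIRE value was below the lowest *Csf1r* +/+ value. Its log2 difference was -1.31 (standard error 0.15, 95% interval -1.66 to -0.96, limma adjusted p = 0.00816). All 3 *Csf1r* ΔFIRE/ΔFIRE values lay below 4.29, the lowest of the 12 array medians.

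*Ncf1*, the organising subunit that carries the cytosolic proteins to the membrane, read 4.28, 3.83 and 4.23 in *Csf1r* ΔFIRE/ΔFIRE hippocampi and 5.28, 5.08 and 5.16 in *Csf1r* +/+ hippocampi. Again the groups did not overlap, and the *Csf1r* ΔFIRE/ΔFIRE arrays all lay under the lowest array median here too. The log2 difference was -1.06 (standard error 0.13, 95% interval -1.37 to -0.75, adjusted p = 0.0140). *Cyba*, the membrane partner shared by several NOX catalytic subunits, read 6.15, 6.06 and 6.20 in *Csf1r* ΔFIRE/ΔFIRE hippocampi, against 6.71, 6.66 and 6.66 in *Csf1r* +/+ hippocampi. The gap was narrow but the groups did not overlap, and the log2 difference was -0.54 (standard error 0.08, adjusted p = 0.0478), 1.45-fold lower.

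*Cybb*, the catalytic subunit, read 3.29, 3.46 and 2.87 in *Csf1r* ΔFIRE/ΔFIRE hippocampi and 3.58, 3.82 and 3.61 in *Csf1r* +/+ hippocampi. The groups did not overlap, yet *Cybb* did not pass the test over all clusters (log2 difference -0.46, standard error 0.16, 95% interval -0.83 to -0.10, adjusted p = 0.847). *Ncf4* overlapped, at 3.50, 3.72 and 3.31 in *Csf1r* ΔFIRE/ΔFIRE hippocampi and 3.60, 3.56 and 3.84 in *Csf1r* +/+ hippocampi (log2 difference -0.16, standard error 0.13). All 6 hippocampus values of both genes lay below the lowest array median.

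The other 4 genes lay below the lowest array median on all 6 hippocampus arrays. *Nox1* spanned 2.37 to 2.71 in *Csf1r* ΔFIRE/ΔFIRE and 2.48 to 2.996 in *Csf1r* +/+ hippocampi, and *Nox4* 2.81 to 2.97 in *Csf1r* ΔFIRE/ΔFIRE and 2.52 to 2.84 in *Csf1r* +/+ hippocampi. *Duox2* spanned 2.87 to 3.01 in *Csf1r* ΔFIRE/ΔFIRE and 2.81 to 3.62 in *Csf1r* +/+ hippocampi, and *Duoxa2* 3.02 to 3.75 in *Csf1r* ΔFIRE/ΔFIRE and 2.86 to 3.42 in *Csf1r* +/+ hippocampi. All 4 overlapped between genotypes, and their log2 differences lay between -0.21 and 0.27 with adjusted p = 0.992 each. In all, 3 of 9 members passed the test as lower and 0 as higher, against a background of 95 lower among 21218 clusters (0.448%) and 0 higher. At an unadjusted p under 0.05 there were 4, the fourth being *Cybb*. For 4 members the genotypes did not overlap with *Csf1r* ΔFIRE/ΔFIRE lower, as for 5.2% of all clusters, and for 0 members with *Csf1r* ΔFIRE/ΔFIRE higher, as for 4.46% of all clusters. The median log2 difference was -0.21 over the 9 members and 0.0077 over all clusters.

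**Figure D1:**
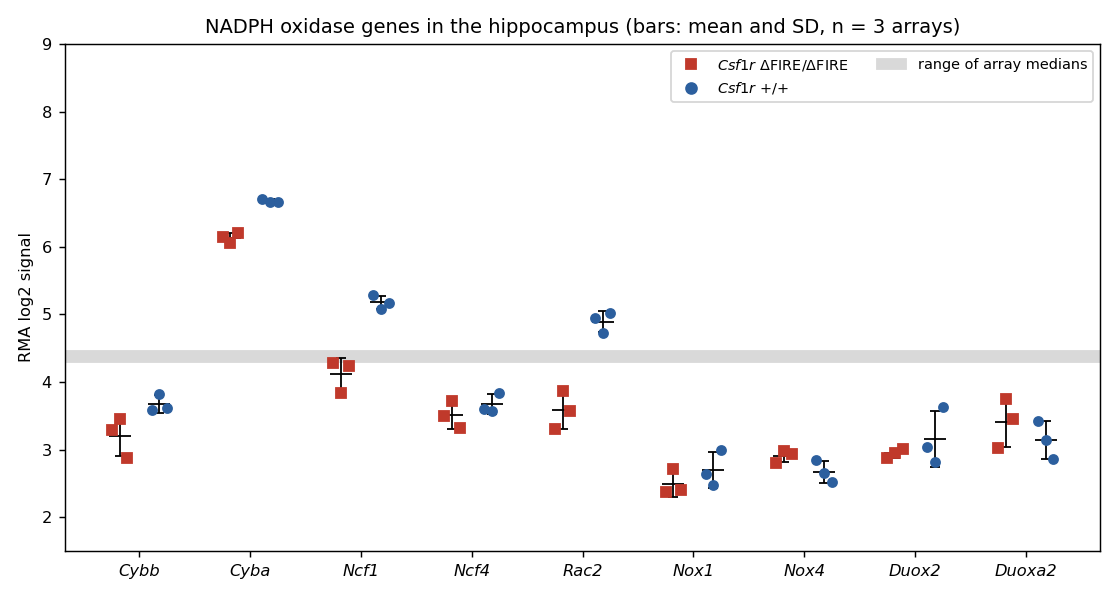
RMA log2 signal (vertical axis) of the 9 NADPH oxidase genes (horizontal axis) in the hippocampus, *Csf1r* ΔFIRE/ΔFIRE squares left and *Csf1r* +/+ circles right, with mean and SD bars over 3 arrays and the range of the 12 array medians in grey. *Rac2*, *Ncf1*, *Cyba* and *Cybb* separate, with *Rac2* at 3.31 to 3.86 in *Csf1r* ΔFIRE/ΔFIRE and 4.72 to 5.02 in *Csf1r* +/+ hippocampi.

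The *Rac2*, *Ncf1* and *Cyba* calls depended on single arrays. The *Cyba* call ended in each fit without 1 array (adjusted p = 0.112 to 0.269), the *Ncf1* call ended without the *Csf1r* ΔFIRE/ΔFIRE array H07 (0.0545) or the *Csf1r* +/+ arrays E07 (0.0622) or G07 (0.0778), and the *Rac2* call ended without H07 (0.0566) or G07 (0.0563). The log2 differences themselves moved little, to between -1.45 and -1.18 for *Rac2*, -1.14 and -0.92 for *Ncf1* and -0.57 and -0.50 for *Cyba*. None of the 3 passed without moderated variances, with all clusters of the table tested or in 1 fit of all 12 arrays, and the *Cyba* call also ended with array medians subtracted (0.206) or labelled sex as a covariate (0.132). That covariate codes B09 as female, against its *Xist* and *Eif2s3y* signals. The number in the array codes also separated the groups in part, with all *Csf1r* +/+ hippocampi and *Csf1r* ΔFIRE/ΔFIRE array H07 coded 07 and the other *Csf1r* ΔFIRE/ΔFIRE arrays 09. With H07 alone against the *Csf1r* +/+ arrays, its spread assumed equal to theirs, the log2 differences were -1.32 for *Rac2* (adjusted p = 0.144), -0.95 for *Ncf1* (0.294), -0.47 for *Cyba* (1.0) and -0.80 for *Cybb* (0.629).

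Microglial markers moved with these genes. Of 11 measured microglia genes 10 were lower in *Csf1r* ΔFIRE/ΔFIRE hippocampi, with a median log2 difference of -2.73 and a list mean of 3.98 to 4.29 in *Csf1r* ΔFIRE/ΔFIRE, against 6.73 to 7.04 in *Csf1r* +/+ hippocampi. Of 9 macrophage genes 4 were lower, and the list mean was 4.21 to 4.37 in *Csf1r* ΔFIRE/ΔFIRE and 5.005 to 5.17 in *Csf1r* +/+ hippocampi. Of 9 neutrophil genes only *Csf3r* passed as lower (log2 difference -1.19), while the granule and alarmin genes *S100a8*, *S100a9*, *Camp*, *Ngp* and *Ltf* did not pass. At an unadjusted p under 0.05, 2 of the 9 were lower. *Ngp* did not overlap between genotypes, at 1.97 to 2.10 in *Csf1r* ΔFIRE/ΔFIRE and 2.41 to 2.82 in *Csf1r* +/+ hippocampi, all below the lowest array median. The list mean of 10 B cell genes was 2.79 to 2.86 in *Csf1r* ΔFIRE/ΔFIRE and 2.84 to 3.07 in *Csf1r* +/+ hippocampi, with none called. In whole tissue, fewer cells of a type and less RNA per cell cannot be told apart, and the part of microglial content in the oxidase result was not tested.

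Among listed oxidase partners and other oxidases, 9 had a cluster of their own. In the hippocampus 2 of these 9 fell and 0 rose. *Pik3cg*, a phosphoinositide kinase of leukocytes, read 3.36, 3.60 and 3.23 in *Csf1r* ΔFIRE/ΔFIRE hippocampi, against 4.84, 5.03 and 4.62 in *Csf1r* +/+ hippocampi (log2 difference -1.44, standard error 0.14, adjusted p = 0.00321). *Vav1*, an exchange factor for Rac GTPases, read 3.34, 3.42 and 3.39 in *Csf1r* ΔFIRE/ΔFIRE hippocampi and 4.37, 4.33 and 4.09 in *Csf1r* +/+ hippocampi (log2 difference -0.88, standard error 0.10, adjusted p = 0.00763). The *Vav1* call ended without any 1 of the *Csf1r* ΔFIRE/ΔFIRE arrays (adjusted p = 0.0563 to 0.0600), and with only the arrays coded 07 neither passed (*Pik3cg* 0.113, *Vav1* 0.557).

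The partners that are not confined to leukocytes did not pass the test in the hippocampus. *Rac1*, the widely expressed Rac GTPase, had a log2 difference of 0.04 (standard error 0.09), and *Cybc1*, a chaperone of the membrane pair, one of 0.02 (standard error 0.10). None of 19 measured genes of superoxide and peroxide handling (superoxide dismutases, glutathione peroxidases, peroxiredoxins and others) and none of 6 peroxidases and nitric oxide synthases were called in the hippocampus, at the adjusted threshold or at an unadjusted p under 0.05.

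In the ileum none of the 9 members passed the test for genotype, where the background was 0 of 21218 clusters in either direction (0%), with 393 higher and 327 lower at an unadjusted p under 0.05 and 0 members among them. A test without moderated variances also called 0. No member separated the genotypes, against 4.52% of all clusters with every *Csf1r* ΔFIRE/ΔFIRE array lower and 3.52% with every *Csf1r* ΔFIRE/ΔFIRE array higher. The median log2 difference was 0.10 over the members and -0.0099 over all clusters.

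*Rac2* read 8.77, 7.45 and 6.69 in *Csf1r* ΔFIRE/ΔFIRE ileum and 5.98, 8.99 and 6.89 in *Csf1r* +/+ ileum. *Cybb* read 8.48, 8.07 and 7.56 in *Csf1r* ΔFIRE/ΔFIRE ileum and 6.68, 8.93 and 7.24 in *Csf1r* +/+ ileum. Both genes spread more within a genotype than between genotypes, and the same held for *Ncf1* (5.65 to 6.66 in *Csf1r* ΔFIRE/ΔFIRE, 5.21 to 6.93 in *Csf1r* +/+) and *Ncf4* (4.50 to 5.90 in *Csf1r* ΔFIRE/ΔFIRE, 3.91 to 6.25 in *Csf1r* +/+). The 95% intervals of the log2 difference were correspondingly wide, from -1.58 to 2.29 for *Rac2*, -0.89 to 1.73 for *Cybb*, -0.90 to 1.27 for *Ncf1* and -1.38 to 1.59 for *Ncf4*. The hippocampus differences of *Rac2* and *Cybb* lie inside their ileum intervals, so a change of that size is not excluded here. That of *Ncf1* lies outside its interval, which does not say that a fall of that size would have passed the test. The difference between the tissues was tested directly, as given below, and did not pass for any member.

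*Cyba* was measured more tightly, at 9.81, 9.93 and 9.81 in *Csf1r* ΔFIRE/ΔFIRE ileum and 9.53, 10.12 and 9.90 in *Csf1r* +/+ ileum. Its log2 difference was -0.0004 (95% interval -0.38 to 0.38), an interval that does not reach the -0.54 measured in the hippocampus. *Duox2* was similarly tight, at 8.09, 8.26 and 8.59 in *Csf1r* ΔFIRE/ΔFIRE ileum and 8.58, 8.08 and 8.33 in *Csf1r* +/+ ileum (log2 difference -0.01, 95% interval -0.44 to 0.41). Its partner *Duoxa2* read 5.91, 6.71 and 6.94 in *Csf1r* ΔFIRE/ΔFIRE and 6.32, 7.002 and 7.10 in *Csf1r* +/+ ileum (log2 difference -0.29, 95% interval -1.03 to 0.45), and the groups of both genes overlapped. *Nox4*, which makes hydrogen peroxide without cytosolic subunits, stayed between 3.14 and 3.50 in *Csf1r* ΔFIRE/ΔFIRE and 3.28 and 3.47 in *Csf1r* +/+ ileum.

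**Figure D2:**
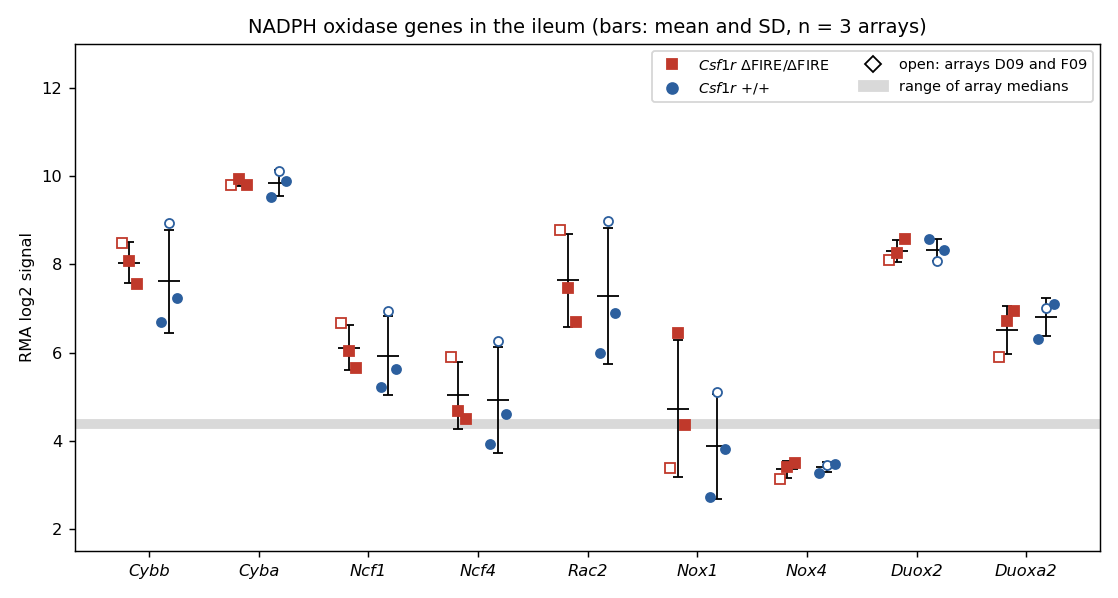
RMA log2 signal (vertical axis) of the 9 genes (horizontal axis) in the ileum, *Csf1r* ΔFIRE/ΔFIRE squares left and *Csf1r* +/+ circles right, with mean and SD bars over 3 arrays. Open symbols are arrays F09 and D09 and the grey band is the range of array medians, the genotypes overlap for every gene, and the open symbols are the highest of their genotype for *Cybb*, *Ncf1*, *Ncf4* and *Rac2*.

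*Nox1*, the superoxide-producing oxidase of the intestinal epithelium, varied more among the ileum pieces than *Duox2*, *Duoxa2* or *Nox4*. It read 3.39, 6.44 and 4.36 in *Csf1r* ΔFIRE/ΔFIRE ileum and 2.72, 5.09 and 3.81 in *Csf1r* +/+ ileum, with a log2 difference of 0.86 (standard error 0.86, 95% interval -1.17 to 2.89). The *Csf1r* ΔFIRE/ΔFIRE array G09 was the highest, and with 1 array left out the difference ran from 0.001 without G09 to 1.53 without F09. On that array the ileal bile acid genes *Fabp6* (9.26, with 10.91 to 11.59 on the other 5) and *Slc10a2* (5.58, with 8.18 to 9.79 on the other 5) were the lowest of the ileum. Of the same epithelial list, *Apoa4* (12.23) and *Lyz1* (12.82) were the highest of the ileum on G09. *Vil1*, *Muc2*, *Epcam* and *Cdh17* lay within the range of the other 5. Array D09, next highest for *Nox1*, read 10.91 for *Fabp6* and 9.16 for *Slc10a2*. The part of these differences in the *Nox1* spread was not tested.

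B cell and T cell markers moved with the phagocyte genes, and dendritic cell markers did so only in part. On arrays F09 and D09 *Rac2* was at 8.77 and 8.99, against 5.98 to 7.45 on the other 4 ileum arrays, *Ncf4* at 5.90 and 6.25 against 3.91 to 4.68, *Ncf1* at 6.66 and 6.93 against 5.21 to 6.03, and *Cybb* at 8.48 and 8.93 against 6.68 to 8.07. *Cyba* overlapped (9.81 and 10.12 against 9.53 to 9.93), and *Duox2* was lower there (8.09 and 8.08 against 8.26 to 8.59). The means of 8 T cell genes were 5.52 and 5.38 on F09 and D09, against 4.07 to 4.48 on the others. Those of 7 dendritic cell genes were 4.953 and 5.53 against 4.17 to 4.935. Of these genes *Ccr7* (7.60 and 7.35 against 4.46 to 4.79), *Flt3* and *Xcr1* were higher on F09 and D09. *Itgax* (6.14 and 7.04 against 5.72 to 6.99), *Clec9a*, *Zbtb46* and *Cd209a* overlapped. *Lyz2*, the lysozyme gene of macrophages, was at 10.94 and 11.11 there, against 9.62 to 10.34. The macrophage list as a whole (5.93 and 6.38 against 6.00 to 6.46) and the neutrophil list (2.80 and 3.16 against 2.89 to 3.27) overlapped. Of the neutrophil genes, *S100a8* was at 2.47 to 2.67 and *S100a9* at 3.12 to 3.60 on all 6 arrays. *Retnlg* varied more, at 2.42 and 4.11 on F09 and D09 against 2.80 to 4.98, and *Elane* was at 3.67 and 4.28 against 3.60 to 4.09.

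Without F09 and D09, which leaves 2 arrays of each genotype, none of the 9 members was called and none of all clusters. The log2 differences were then 2.14 for *Nox1* (standard error 0.74), 0.85 for *Cybb* (0.26), 0.64 for *Rac2* (0.39), 0.41 for *Ncf1* (0.22) and 0.33 for *Ncf4* (0.25), with adjusted p = 0.913 each, and those of *Cyba*, *Nox4* and *Duoxa2* turned to 0.15, 0.08 and 0.12. The part of these cell types in the levels on F09 and D09 was not tested.

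**Figure D3:**
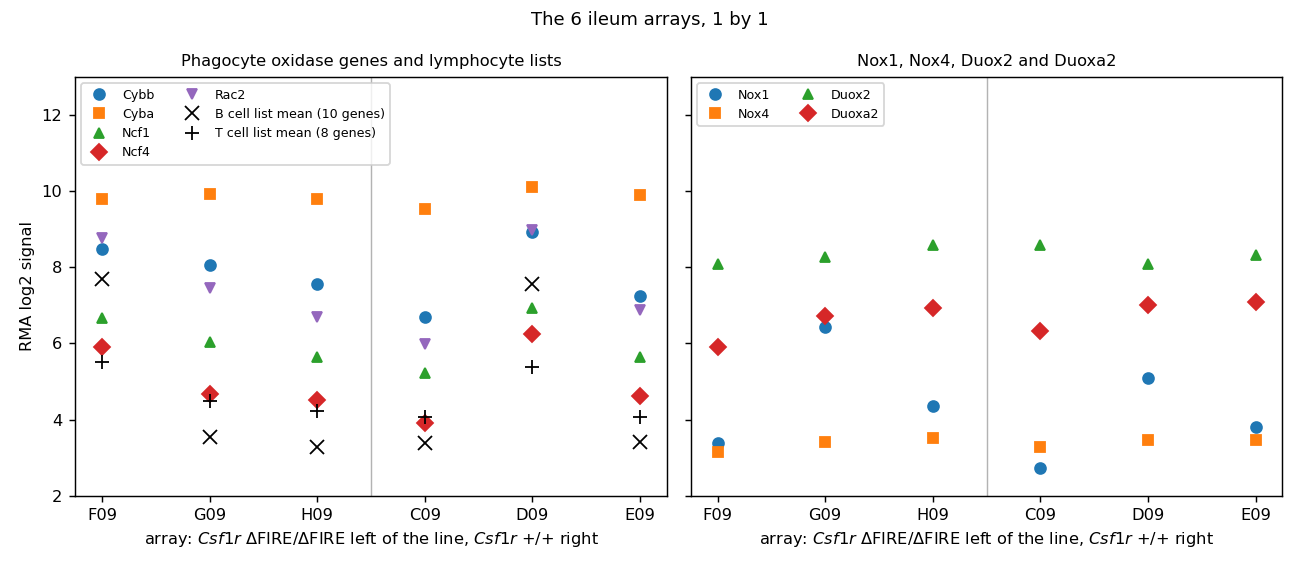
RMA log2 signal (vertical axis) on each of the 6 ileum arrays (horizontal axis, *Csf1r* ΔFIRE/ΔFIRE left of the line and *Csf1r* +/+ right), with the phagocyte genes and the means of 10 B cell and 8 T cell genes in the left panel and the other oxidase genes in the right panel. *Rac2*, *Cybb*, *Ncf1* and *Ncf4* peak on F09 and D09 with the B cell mean, and *Nox1* peaks on G09 at 6.44.

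The genotype effects in both tissues were compared by the difference between them, fitted over all 12 arrays. None of the 9 members passed (adjusted p = 1 each), where 19 of 21218 clusters (0.0895%) were lower and 0 higher. The difference was -1.67 for *Rac2* (standard error 0.92, unadjusted p = 0.0957), -1.25 for *Ncf1* (0.52, 0.0353), -0.89 for *Cybb* (0.63, 0.189) and -0.54 for *Cyba* (0.18, 0.0126). With 1 array left out it ran from -2.52 without D09 to -1.01 without C09 for *Rac2*, -1.75 to -0.89 for *Ncf1*, -1.54 to -0.42 for *Cybb* and -0.67 to -0.38 for *Cyba*, at the same arrays. Without both F09 and D09 it was -1.95 for *Rac2* (adjusted p = 0.174), -1.48 for *Ncf1* (0.0581), -1.32 for *Cybb* (0.258) and -0.69 for *Cyba* (0.268). A genotype effect on the phagocyte genes that differs between hippocampus and ileum was therefore not shown over all clusters, although *Cyba* and *Ncf1* had an unadjusted p under 0.05.

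All 9 genes had higher group means in the ileum than in the hippocampus in both genotypes. In *Csf1r* ΔFIRE/ΔFIRE mice all 9 passed the test as lower in hippocampus, where 31.8% of clusters were lower and 29.5% higher (61.3% in either direction). In *Csf1r* +/+ mice 7 of 9 passed as lower, with a background of 31.1% lower and 28.7% higher (59.8% in either direction), and *Ncf1* and *Nox1* did not pass. The median log2 difference of the members was -3.11 in *Csf1r* ΔFIRE/ΔFIRE and -2.39 in *Csf1r* +/+ mice, beside -0.07 in *Csf1r* ΔFIRE/ΔFIRE and -0.03 in *Csf1r* +/+ mice over all clusters. *Nox4*, counted as lower in both genotypes, lay below the lowest array median on every array of both tissues. These are differences between whole tissues and not within a cell type.

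Both genes of the dual oxidase were lower in hippocampus, where their signals lay below the lowest array median on all 6 arrays. *Duox2* averaged 2.94 ± 0.07 in *Csf1r* ΔFIRE/ΔFIRE hippocampus and 8.31 ± 0.25 in *Csf1r* ΔFIRE/ΔFIRE ileum (SD, n = 3 each), a log2 difference of -5.37 (standard error 0.20, adjusted p = 2.08e-10). In *Csf1r* +/+ mice it averaged 3.16 ± 0.42 in hippocampus and 8.33 ± 0.25 in ileum, a log2 difference of -5.17 (standard error 0.20, adjusted p = 3.01e-10). *Duoxa2* averaged 3.41 ± 0.37 in hippocampus and 6.52 ± 0.54 in ileum of *Csf1r* ΔFIRE/ΔFIRE mice, a log2 difference of -3.11 (standard error 0.29, adjusted p = 1.17e-06), and 3.14 ± 0.28 in hippocampus and 6.80 ± 0.43 in ileum of *Csf1r* +/+ mice, a difference of -3.66 (adjusted p = 2.53e-07).

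The head-to-head pair thus moved in the same direction between tissues, and no array of one tissue overlapped the other. A further cluster annotated to both *Duoxa1* and *Duoxa2* stayed low throughout, at 3.02 to 3.26 in hippocampus and 3.38 to 3.60 in ileum of *Csf1r* ΔFIRE/ΔFIRE mice and at 2.97 to 3.52 in hippocampus and 3.28 to 3.68 in ileum of *Csf1r* +/+ mice. *Duox1*, the other dual oxidase, had a log2 difference of -0.67 in *Csf1r* ΔFIRE/ΔFIRE mice (standard error 0.23, adjusted p = 0.0217) and -0.18 in *Csf1r* +/+ mice (adjusted p = 0.526). *Noxo1*, the organiser of NOX1, was lower in hippocampus, with a log2 difference of -3.01 in *Csf1r* ΔFIRE/ΔFIRE and -3.49 in *Csf1r* +/+ mice (adjusted p = 2.15e-07 and 5.34e-08).

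Within the phagocyte enzyme, the membrane pair was lower in hippocampus in both genotypes. *Cyba* averaged 6.14 ± 0.07 in hippocampus and 9.85 ± 0.07 in ileum of *Csf1r* ΔFIRE/ΔFIRE mice (log2 difference -3.71, adjusted p = 1.04e-10), and 6.68 ± 0.03 in hippocampus and 9.85 ± 0.29 in ileum of *Csf1r* +/+ mice (-3.17, adjusted p = 4.39e-10). *Cybb* averaged 3.205 ± 0.30 in hippocampus and 8.04 ± 0.46 in ileum of *Csf1r* ΔFIRE/ΔFIRE mice (log2 difference -4.83, adjusted p = 1.07e-06), and 3.67 ± 0.13 in hippocampus and 7.62 ± 1.17 in ileum of *Csf1r* +/+ mice (-3.95, adjusted p = 7.23e-06). On all 12 arrays the ileum values of both genes lay above the hippocampus values. *Cyba* is also expressed by many cells outside the phagocyte lineage.

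*Rac2* averaged 3.58 ± 0.28 in hippocampus and 7.64 ± 1.05 in ileum of *Csf1r* ΔFIRE/ΔFIRE mice (log2 difference -4.06, standard error 0.65, adjusted p = 0.000141), and 4.89 ± 0.15 in hippocampus and 7.29 ± 1.54 in ileum of *Csf1r* +/+ mice (-2.39, adjusted p = 0.00674). Without D09 the *Csf1r* +/+ difference was -1.54 (adjusted p = 0.0166). *Ncf1* averaged 4.12 ± 0.24 in hippocampus and 6.11 ± 0.51 in ileum of *Csf1r* ΔFIRE/ΔFIRE mice, a log2 difference of -2.00 (adjusted p = 0.000459). In *Csf1r* +/+ mice *Ncf1* averaged 5.18 ± 0.10 in hippocampus and 5.93 ± 0.90 in ileum, the tissues overlapped, and the difference of -0.75 (standard error 0.37, adjusted p = 0.103) ran from -1.11 without the ileum array C09 (adjusted p = 0.0200, the only fit without 1 array in which it passed) to -0.25 without D09 (adjusted p = 0.453).

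*Ncf4*, whose product binds phosphoinositides on the phagosome, averaged 3.51 ± 0.20 in hippocampus and 5.03 ± 0.76 in ileum of *Csf1r* ΔFIRE/ΔFIRE mice (log2 difference -1.52, adjusted p = 0.0191), and 3.67 ± 0.15 in hippocampus and 4.92 ± 1.20 in ileum of *Csf1r* +/+ mice (-1.25, adjusted p = 0.0468). Both calls ended without 1 of the arrays with high B cell signal. Without F09 the *Csf1r* ΔFIRE/ΔFIRE difference was -1.08 (adjusted p = 0.0843, and 0.0579 without H07), and without D09 the *Csf1r* +/+ difference was -0.59 (adjusted p = 0.188). The *Csf1r* +/+ call also ended in most of the fits without 1 other array (adjusted p = 0.0541 to 0.105).

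*Nox1* averaged 2.49 ± 0.19 in hippocampus and 4.73 ± 1.56 in ileum of *Csf1r* ΔFIRE/ΔFIRE mice (log2 difference -2.24, adjusted p = 0.0128, and -1.38 with adjusted p = 0.0449 without G09), and 2.70 ± 0.27 in hippocampus and 3.87 ± 1.19 in ileum of *Csf1r* +/+ mice (-1.17, adjusted p = 0.164). The *Csf1r* +/+ tissues overlapped, and the difference ran from -1.75 without C09 (adjusted p = 0.0493, the only such fit in which it passed) to -0.56 without D09 (adjusted p = 0.518). *Nox4* averaged 2.91 ± 0.09 in hippocampus and 3.35 ± 0.19 in ileum of *Csf1r* ΔFIRE/ΔFIRE mice (log2 difference -0.45, adjusted p = 0.00649) and 2.67 ± 0.16 in hippocampus and 3.40 ± 0.11 in ileum of *Csf1r* +/+ mice (-0.73, adjusted p = 0.000187). After a second quantile normalization the *Csf1r* ΔFIRE/ΔFIRE call of *Nox4* ended (-0.31, adjusted p = 0.0561).

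**Figure D4:**
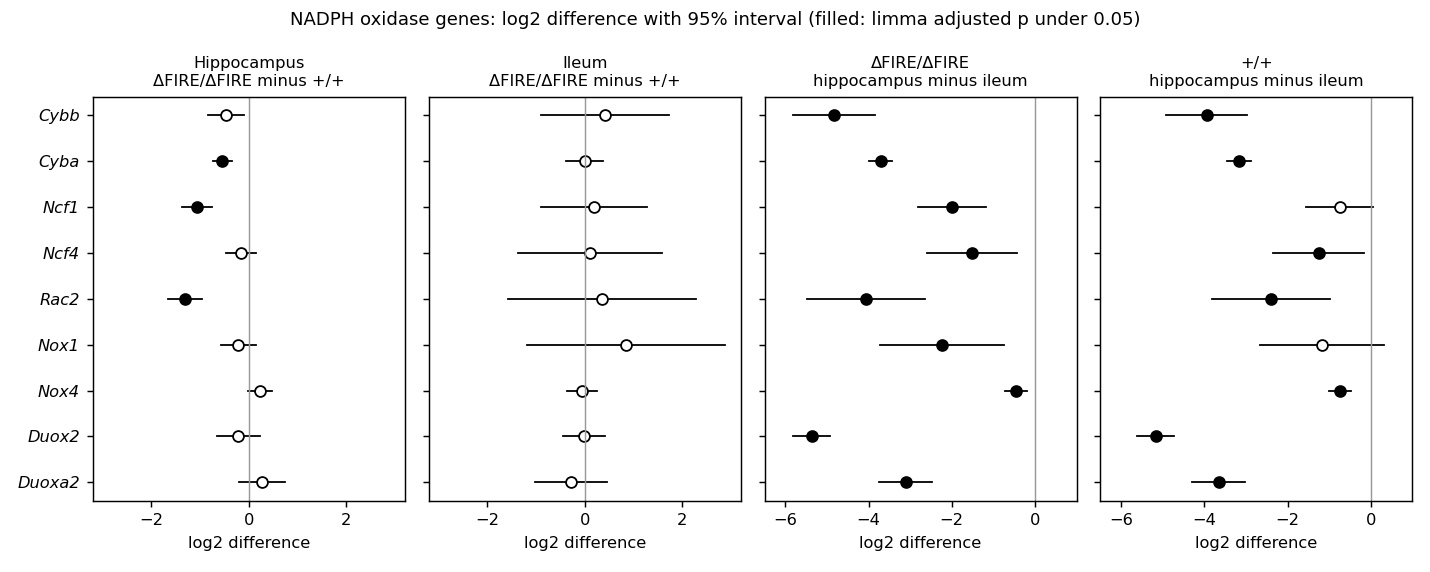
Log2 difference (horizontal axis) of each of the 9 genes (vertical axis) with its 95% interval, in 4 comparisons. Filled points pass a limma adjusted p of 0.05. *Rac2*, *Ncf1* and *Cyba* are filled for genotype in the hippocampus, none is in the ileum, and between tissues all 9 are filled in *Csf1r* ΔFIRE/ΔFIRE and 7 in *Csf1r* +/+ mice.

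The order of the 4 group means was the same in outline for every member, with both ileum groups above both hippocampus groups. The ileum genotypes did not differ beyond their spread for any of the 9, and in the hippocampus *Csf1r* ΔFIRE/ΔFIRE lay below *Csf1r* +/+ with no overlap for *Rac2*, *Ncf1*, *Cyba* and *Cybb*, of which *Cybb* did not pass the test. For *Nox4* and *Duoxa2* the lowest mean was instead in *Csf1r* +/+ hippocampi, within the spread of the groups.

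For the 8 members whose group means spanned over 1 log2 unit, the genes with the most similar profile over the 12 arrays were found by the root mean square difference of signals centred on each gene's mean. *Ncf1* was nearest to *Irf5* (0.19), *Itgb2* (0.29) and *Fermt3* (0.29), and *Rac2* to *Lcp1* (0.37), *Ptprc* (0.43) and *Spib* (0.52). *Cybb* was nearest to *H2-Eb1* (0.33), *Dnase1l3* (0.39) and *Cd72* (0.39), *Ncf4* to *Akna* (0.23), *Wdfy4* (0.23) and *Gapt* (0.26), and *Cyba* to *Ttc7* (0.18), *Acads* (0.19) and *Bnip5* (0.19). *Duox2* was nearest to *Ptk6* (0.18), *Nlrc4* (0.19) and *Ush1c* (0.19), *Duoxa2* to *Tgm2* (0.23), *S100a11* (0.24) and *Lyve1* (0.24), and *Nox1* to *Ocstamp* (0.48), *Alox15* (0.50) and *Ghrl* (0.52). The values describe likeness over 12 arrays that share tissue and genotype, and carry no test.

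The genes that surround the oxidases also divided by tissue. Of the 9 measured genes of the list of partners and other oxidases (*Duox1* and *Nox3*), 7 were lower in hippocampus than in ileum in *Csf1r* ΔFIRE/ΔFIRE mice and 6 in *Csf1r* +/+ mice, among them *Prkcd*, a kinase of p47phox (log2 difference -2.29 in *Csf1r* +/+ mice, adjusted p = 6.37e-09), and *Cybc1* (-0.79, adjusted p = 0.000103). Of 19 genes of superoxide and peroxide handling, 15 were lower in hippocampus in each genotype, led in *Csf1r* +/+ mice by *Gpx2*, the gut epithelial glutathione peroxidase (log2 difference -6.95), with *Gpx3* (-3.10), *Nqo1* (-2.16) and *Gsr*, glutathione reductase (-1.95). Higher in hippocampus of *Csf1r* +/+ mice were *Sod2*, the mitochondrial superoxide dismutase (0.59, adjusted p = 0.000141), and *Prdx2*, a peroxiredoxin (0.27, adjusted p = 0.0339). The *Prdx2* call ended with only the *Csf1r* +/+ arrays in the fit (0.0798) and without C09, E07, E09 or G07 (0.0695 to 0.129). The nitric oxide synthases split, with *Nos1*, the neuronal form, higher (3.07) and *Nos2*, the inducible form, lower (-5.24) in hippocampus of *Csf1r* +/+ mice. *Nos3* lay higher there without overlap, at 4.81 to 5.12 in hippocampus and 3.96 to 4.46 in ileum of *Csf1r* +/+ mice. Of 8 antimicrobial genes of the gut epithelium 5 were lower in hippocampus, led by *Reg3g* (-9.10) and *Reg3b* (-8.49), and none passed for genotype in either tissue.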

How the data were processed

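Total RNA from 12 tissue samples was hybridised to Affymetrix Mouse Gene ST arrays. The authors' deposited table holds log2 signals that they made from the array images by RMA (background correction, quantile normalization and 1 value per transcript cluster; no version is given in the sources used here), and these were used without further scaling. Values ran from 0.50 to 12.99, array medians from 4.29 to 4.46, and none was missing. Of 35556 clusters, 21218 with a single symbol in the platform annotation were tested, 1881 carried several symbols and 12457 none. Precision is limited by having 3 arrays per group.

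Genotypes were compared within each tissue, and tissues and the difference of genotype effects in 1 fit of 12 arrays, using lmFit and eBayes of limma 3.58.1 (R 4.3.3), Benjamini-Hochberg adjustment over all 21218 clusters and a threshold of 0.05, two-sided. An exact permutation test of 3 against 3 cannot go below 0.1, so none was used. No label pairs samples, and p-values measure the spread between these arrays. The fits were tested on simulated data. The members, gene lists and tests were chosen with earlier results of these data known. Named besides the 9 members were oxidase partners, the genes of each other list with the largest differences among those called, and markers. Other moderation, scaling, clusters, covariates, array weights and left-out arrays were tried as alternatives. Coordinates are RefSeq GRCm38.p6. No source used here names the authors' build.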

Additional observations from a re-analysis of the deposited data

Results flagged for a closer look

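Among the 9 members and the other named genes checked, *Csf1r* was singled out because its genotype effect differed between the tissues by a test of the difference itself. It was not alone over all clusters, where 19 of 21218 passed. Passing as lower were 5 of 11 measured microglia genes, *Csf1r* included, 1 of 9 macrophage genes and 1 of 9 neutrophil genes. For *Csf1r* the effect in the hippocampus minus that in the ileum was -3.92 on the log2 scale (standard error 0.36, limma adjusted p = 0.000758), with *Csf1r* lower on 3 of 3 *Csf1r* ΔFIRE/ΔFIRE hippocampus arrays. None of the 9 oxidase genes met this test.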

How the results depend on the processing

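The hippocampus count of 3 lower members was 0 without moderation, with all clusters tested, with all 12 arrays in 1 fit, with the array code number as a block and with only the arrays coded 07, and 0 to 2 with 1 array left out. The log2 differences of *Rac2*, *Ncf1*, *Cyba* and *Cybb* stayed negative in all of these. The cause was not tested, beyond the fewer arrays or larger set of clusters in some of them. Over all clusters the 95 hippocampus calls became 25 without moderation, 41 in the fit of 12 arrays and 34 with only arrays coded 07. The 19 calls between genotype effects became 8 without moderation, 34 with array weights, 65 without D09 and F09 and 12 to 41 with 1 array left out. Counts of members lower in hippocampus than ileum were 8 to 9 in *Csf1r* ΔFIRE/ΔFIRE and 6 to 9 in *Csf1r* +/+ mice with 1 array left out. They were 7 and 5 with clusters left out that exceeded the array median on fewer than 3 of the compared arrays.

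Directions that turned were all of differences that did not pass the test. In the ileum *Cyba* became 0.0207 with array medians subtracted, 0.0089 with labelled sex and 0.15 without D09 and F09, *Nox4* 0.0823 and *Duoxa2* 0.12 without D09 and F09, and *Duox2* 0.0064 with medians subtracted and 0.0172 with array weights. With 1 ileum array left out the ranges were -0.0471 to 1.08 for *Cybb*, -0.16 to 0.13 for *Cyba*, -0.17 to 0.69 for *Ncf1*, -0.40 to 0.77 for *Ncf4*, -0.30 to 1.21 for *Rac2*, -0.13 to 0.0535 for *Nox4*, -0.15 to 0.11 for *Duox2*, -0.53 to 0.0184 for *Duoxa2* and 0.001 to 1.53 for *Nox1*. *Duox2* in the hippocampus ranged from -0.39 to 0.019, and the difference of genotype effects from -0.93 to 0.24 for *Ncf4* and -0.37 to 0.0337 for *Duox2*. Mean *Duox2* in *Csf1r* ΔFIRE/ΔFIRE hippocampi was 3.02 instead of 2.94 after a second quantile normalization, and 0 instead of 2 windows held the longer PU.1 motif. Each member has 1 cluster of its own, so averaging clusters changed nothing. No paired analysis was possible because the labels give no replicate numbers shared between groups. Low signals of *Rac2* and *Ncf1* in *Csf1r* ΔFIRE/ΔFIRE hippocampi and of *Cybb*, *Ncf4*, *Nox1*, *Nox4*, *Duox2* and *Duoxa2* in all hippocampi limit what can be read there. *Nox4* was low in the ileum too, which limits its comparison between tissues.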
